A study of Mus musculus with 8 samples.

Results

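Simple epithelial keratins and cell junction proteins were followed through mouse embryonic stem cells that lack the histone demethylases Jmjd1a, Jmjd1b or both. The list held 9 genes: the keratins Krt8, Krt18 and Krt19, the desmosome proteins Dsp and Pkp2, the plaque protein Jup, the adhesion proteins Cdh1 and Epcam, and the tight junction protein Cldn6. All probe sets with 1 of these symbols were taken, 17 of the 45101 on the array, and those measured were chosen by the span of their log2 values, at least 0.01 over the 8 arrays. This left 11 probe sets of 7 genes. The other 6 were flat, with practically the same value on all arrays: the only probe sets of Jup and Cldn6, 2 of Pkp2, and 1 each of Dsp and Epcam. The threshold separated them widely, since the kept probe set with the smallest span (Cdh1) had 0.652 and the dropped one with the largest (Jup) had 2.66e-07. The span takes in differences between the groups, and the genes were listed with results of these arrays known, so a change in them is described here and read only beside the share of all measured probe sets that changed.

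The 8 Affymetrix arrays held 1 sample each, in 4 groups of 2 biological replicates. Double-KO cells (Jmjd1a delta/delta; Jmjd1b delta/delta) were made by deleting a conditional Jmjd1b allele, through the MerCreMer recombinase and 800 nM of its activating compound OHT, in cells of a Jmjd1a-deficient line. Jmjd1a-KO cells (Jmjd1a delta/delta; Jmjd1b+/+) were that kind of line without the second deletion, Jmjd1b-KO cells (Jmjd1a+/+; Jmjd1b delta/delta) carried the Jmjd1b deletion alone, and WT cells were Jmjd1a+/+; Jmjd1b+/+. All groups grew in medium with serum replacement, some fetal calf serum and leukemia inhibitory factor, the cytokine that holds embryonic stem cells undifferentiated, and the OHT treatment is written in the protocol of every sample, with none labelled as a treated control. Which clone gave which replicate is not stated in the sources used here, so any difference between lines cannot be told apart from genotype, and p-values measure only the spread between these samples. The transcript of the deleted gene followed the labels: Kdm3a, the current name of Jmjd1a, had 4.60 to 5.08 in double-KO and Jmjd1a-KO cells, against 12.73 to 12.83 in Jmjd1b-KO and WT cells. Kdm3b, the current name of Jmjd1b, had 7.06 to 7.66 in double-KO and Jmjd1b-KO cells, against 9.81 to 9.96 in Jmjd1a-KO and WT cells. Replicates were further apart in double-KO and Jmjd1a-KO cells, where the SD of the replicate difference over 11502 measured probe sets was 0.30 and 0.35, than in Jmjd1b-KO and WT cells, with 0.12 and 0.16.

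Keratins are the proteins of epithelial intermediate filaments. A filament pairs a type II chain with a type I chain, and Krt8 (type II) with Krt18 or Krt19 (type I) makes the filaments of simple epithelia, which in the mouse embryo appear first in the trophectoderm. Desmosomes anchor these filaments at the membrane: Dsp binds the filament, and Pkp2 and Jup link it to the desmosomal cadherins. Cdh1 (E-cadherin) holds neighbouring cells together at adherens junctions and, like the adhesion protein Epcam, is made by undifferentiated embryonic stem cells. Cldn6 is a claudin of early embryonic epithelia.

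The 9 genes did not move as a block. Krt8 and Krt18 were higher wherever Jmjd1b was deleted, and higher still in double-KO than in Jmjd1b-KO cells. Krt19 was high in both double-KO and Jmjd1b-KO cells, Dsp was by far highest in double-KO cells, Pkp2 and Epcam were lowest in WT, and Cdh1 was higher in Jmjd1b-KO than in WT cells and near its WT value in double-KO cells. Values below are on the deposited log2 scale. Changes are differences between group means on that scale, each with its SE from 1 limma model of the 4 groups, and p-values are adjusted by the Benjamini-Hochberg method over the 11502 measured probe sets. A gene is said to rise or fall where the adjusted p is under 0.05. Levels of different probe sets are not compared, and in such bulk cultures fewer cells of a type cannot be told apart from less RNA per cell.

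**Figure D1:**
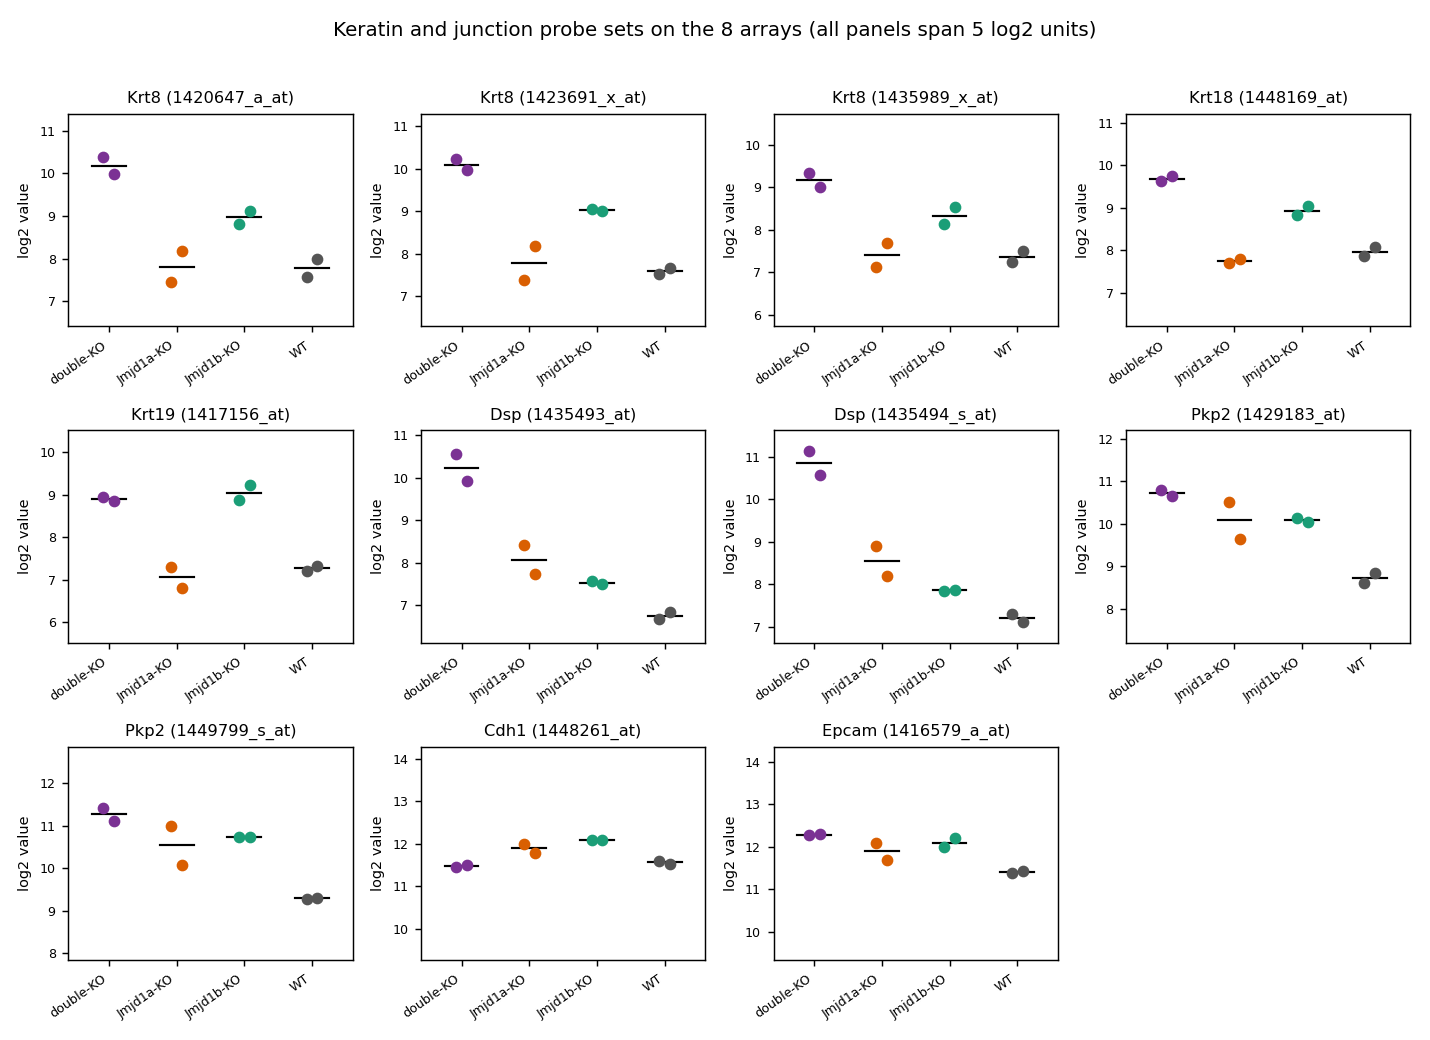
Log2 values of the 11 measured probe sets on the 8 arrays, with 2 points (replicates) and a line (mean) per group and panels of equal height. Krt8, Krt18 and Krt19 are high in double-KO and Jmjd1b-KO arrays, Dsp is highest in double-KO arrays, and Cdh1 is high in the single KO arrays.

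Krt8 was measured by 3 probe sets that gave the same order of groups. The probe set 1420647_a_at had 10.38 and 9.98 in double-KO cells, 7.44 and 8.18 in Jmjd1a-KO cells and 8.82 and 9.11 in Jmjd1b-KO cells, against 7.57 and 7.98 in WT cells. Double-KO arrays thus lay above all others and Jmjd1b-KO arrays above the remaining ones, while Jmjd1a-KO and WT arrays overlapped. Krt8 rose in double-KO against WT by 2.40 ± 0.29 on this probe set (5.29-fold, adjusted p = 0.00181), and by 2.50 and 1.80 on 1423691_x_at and 1435989_x_at. It rose in Jmjd1b-KO against WT by 1.19 ± 0.29 (adjusted p = 0.0354), and by 1.43 and 0.96 on the others. In Jmjd1a-KO against WT the 3 changes were 0.04, 0.17 and 0.05 (adjusted p from 0.661 to 0.944). The suffix x marks probe sets whose probes can also match other transcripts, so these 2 are less certain as measures of Krt8, and the 3 share 1 gene and are not replicates.

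Krt18, the usual partner of Krt8, had 9.64 and 9.74 in double-KO cells, 7.70 and 7.80 in Jmjd1a-KO cells and 8.83 and 9.04 in Jmjd1b-KO cells, against 7.86 and 8.07 in WT cells. No groups overlapped, and the smallest gap was that between WT and Jmjd1a-KO. Krt18 rose in double-KO against WT by 1.72 ± 0.11 (3.30-fold, adjusted p = 0.000305) and in Jmjd1b-KO against WT by 0.97 ± 0.11 (adjusted p = 0.00641). Jmjd1a-KO cells had -0.22 ± 0.11 (adjusted p = 0.207).

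Krt19, a type I keratin without the tail domain of the others, had 8.95 and 8.86 in double-KO cells, 7.31 and 6.81 in Jmjd1a-KO cells and 8.88 and 9.22 in Jmjd1b-KO cells, against 7.20 and 7.33 in WT cells. The double-KO and Jmjd1b-KO arrays overlapped, and both lay above the Jmjd1a-KO and WT arrays. Krt19 rose by 1.63 ± 0.19 in double-KO (adjusted p = 0.00154) and by 1.78 ± 0.19 in Jmjd1b-KO (adjusted p = 0.00553) against WT. Between double-KO and Jmjd1b-KO it had -0.15 ± 0.19 (adjusted p = 0.544), unlike Krt18, which rose between the same groups by 0.75 ± 0.11 (adjusted p = 0.00292).

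Dsp is the protein that ties keratin filaments to the desmosome. On probe set 1435494_s_at it had 11.13 and 10.58 in double-KO cells, 8.89 and 8.20 in Jmjd1a-KO cells and 7.85 and 7.86 in Jmjd1b-KO cells, against 7.30 and 7.11 in WT cells. Probe set 1435493_at had 10.56 and 9.92 in double-KO, 8.41 and 7.74 in Jmjd1a-KO and 7.56 and 7.49 in Jmjd1b-KO cells, against 6.67 and 6.84 in WT cells. The groups overlapped on neither probe set, and double-KO arrays stood well apart from the rest. The change in double-KO against WT was 3.65 ± 0.27 and 3.49 ± 0.28 (12.6-fold and 11.2-fold, adjusted p = 0.00045 and 0.000574), more than for any other gene of the list. Signal over background was not examined, so the size of this fold change is uncertain where the WT signal is low. The remaining Dsp probe set, 1427610_at, was flat at 6.58.

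In Jmjd1a-KO against WT Dsp rose by 1.34 ± 0.27 and 1.32 ± 0.28 (adjusted p = 0.0256 and 0.0305). In Jmjd1b-KO against WT it had 0.65 ± 0.27 and 0.77 ± 0.28 (adjusted p = 0.125 and 0.0948). Both probe sets passed the threshold when the fit held just the Jmjd1b-KO and WT arrays. The 2 single KO groups differed from each other by 0.69 ± 0.27 and 0.54 ± 0.28 (Jmjd1a-KO minus Jmjd1b-KO, adjusted p = 0.106 and 0.2), so their order is not settled.

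The promoters of the keratin pair and of Dsp are given because these genes had rises in double-KO cells beyond either single KO. They come from RefSeq on GRCm38.p6, as 300 bases from 250 before to 50 after the annotated start, and 6 of the 9 genes matched (Krt8, Krt18, Dsp, Jup, Epcam and Cldn6). Capitals mark matches, on either strand, to 4 motifs: the AP-2 palindrome GCCNNNGGC, the E-box CACCTG read by Snail and Zeb repressors, the GC box GGGCGG and the TATA box TATAAA.
Krt8 (chr15:102004293-102004592, minus strand): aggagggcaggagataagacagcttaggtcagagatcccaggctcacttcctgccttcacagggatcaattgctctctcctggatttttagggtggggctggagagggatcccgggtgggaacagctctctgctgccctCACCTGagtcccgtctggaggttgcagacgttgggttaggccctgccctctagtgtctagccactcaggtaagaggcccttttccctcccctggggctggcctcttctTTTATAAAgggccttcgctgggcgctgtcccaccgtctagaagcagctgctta
Krt18 (chr15:102027966-102028265, plus strand): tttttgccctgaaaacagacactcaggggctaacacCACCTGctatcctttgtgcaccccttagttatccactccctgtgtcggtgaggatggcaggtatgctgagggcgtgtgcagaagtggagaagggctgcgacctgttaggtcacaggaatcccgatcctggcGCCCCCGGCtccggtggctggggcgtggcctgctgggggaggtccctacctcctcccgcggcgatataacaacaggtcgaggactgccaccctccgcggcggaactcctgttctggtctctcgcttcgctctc
Dsp (chr13:38151044-38151343, plus strand): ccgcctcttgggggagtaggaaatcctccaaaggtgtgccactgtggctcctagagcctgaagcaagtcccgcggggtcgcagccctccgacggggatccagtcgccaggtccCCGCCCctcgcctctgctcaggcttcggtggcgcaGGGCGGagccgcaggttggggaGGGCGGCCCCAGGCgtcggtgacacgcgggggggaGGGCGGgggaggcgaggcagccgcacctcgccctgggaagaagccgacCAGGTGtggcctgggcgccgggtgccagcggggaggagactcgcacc
The Krt8 window holds 1 E-box at bases 140 to 145 and a pair of overlapping TATA matches from base 248 to 255. These matches, 1 on each strand, begin at -3 and -1 from the annotated start and so lie across it. The Krt18 window holds an E-box at bases 37 to 42 and an AP-2 palindrome at bases 168 to 176. The Dsp window holds 4 GC boxes, 1 E-box at bases 254 to 259 on the minus strand of the window, and an AP-2 palindrome at bases 176 to 184 that shares 1 base with a GC box. Among all 32851 promoters held for the mouse, 20.2% have this E-box, 16.6% the AP-2 palindrome, 35.7% the GC box and 13.6% the TATA box. Of the 6 promoters matched, 5 hold the E-box, 2 the AP-2 palindrome, 4 the GC box and 1 the TATA box. The letters alone do not show that a factor binds there.

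Pkp2, which joins Dsp to the desmosomal cadherins, was higher in each KO group than in WT. Probe set 1449799_s_at had 11.42 and 11.10 in double-KO, 10.98 and 10.08 in Jmjd1a-KO and 10.72 and 10.72 in Jmjd1b-KO cells, against 9.27 and 9.30 in WT cells. All KO arrays lay above both WT arrays, and the Jmjd1a-KO replicates were the most spread. Pkp2 rose against WT by 1.98 ± 0.29 in double-KO (adjusted p = 0.00326), by 1.25 ± 0.29 in Jmjd1a-KO (adjusted p = 0.0362) and by 1.44 ± 0.29 in Jmjd1b-KO (adjusted p = 0.0222). Probe set 1429183_at gave 2.00, 1.35 and 1.36 for the same comparisons, each past the threshold. Between double-KO and either single KO the 4 changes were 0.54 to 0.73 (adjusted p from 0.0926 to 0.167).

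Epcam, a surface protein of epithelia and of embryonic stem cells, had 12.27 and 12.30 in double-KO, 12.10 and 11.69 in Jmjd1a-KO and 11.99 and 12.20 in Jmjd1b-KO cells, against 11.39 and 11.42 in WT cells. Every KO array was above both WT arrays. It rose by 0.88 ± 0.14 in double-KO (adjusted p = 0.005) and by 0.69 ± 0.14 in Jmjd1b-KO (adjusted p = 0.0247) against WT, and had 0.49 ± 0.14 in Jmjd1a-KO (adjusted p = 0.0666).

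Cdh1, the cadherin of adherens junctions, had 11.45 and 11.50 in double-KO cells, 12.00 and 11.78 in Jmjd1a-KO cells and 12.10 and 12.09 in Jmjd1b-KO cells, against 11.60 and 11.53 in WT cells. The single KO arrays lay above the WT and double-KO arrays. Cdh1 rose in Jmjd1b-KO against WT by 0.52 ± 0.09 (1.44-fold, adjusted p = 0.0138) and had 0.32 ± 0.09 in Jmjd1a-KO (adjusted p = 0.0525) and -0.09 ± 0.09 in double-KO (adjusted p = 0.412). In double-KO cells it fell by 0.42 ± 0.09 against Jmjd1a-KO (adjusted p = 0.0187) and by 0.62 ± 0.09 against Jmjd1b-KO (adjusted p = 0.00254). It was the only measured gene of the list that was called lower in double-KO than in a single KO.

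**Figure D2:**
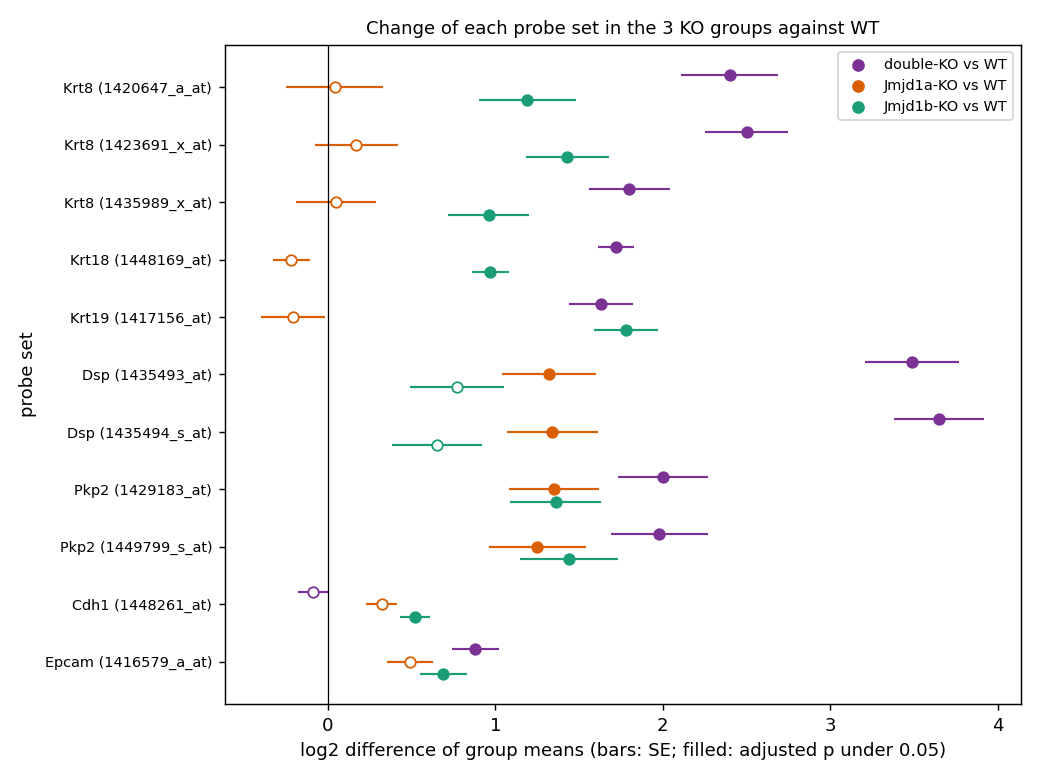
Log2 change of each measured probe set against WT in double-KO, Jmjd1a-KO and Jmjd1b-KO cells, as differences of group means (2 arrays each) with bars for the SE, filled where the adjusted p is under 0.05. The 3 keratins changed with Jmjd1b loss and lie near 0 in Jmjd1a-KO cells, Dsp reached 3.65 in double-KO cells, and Cdh1 lies near 0 there.

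Counted over the 11 probe sets, 10 rose in double-KO against WT, where 26.9% of all measured probe sets rose, 19.6% fell and 46.5% changed either way. In Jmjd1b-KO against WT 9 rose, all but those of Dsp, where 12.3% of all rose, 11.5% fell and 23.9% changed either way. In Jmjd1a-KO against WT 4 rose, those of Dsp and Pkp2, where 9.98% of all rose, 7.84% fell and 17.8% changed either way. Neither single KO comparison nor that of double-KO had a lower call among the 11. Median changes of the 11 were 1.98, 0.97 and 0.32 in double-KO, Jmjd1b-KO and Jmjd1a-KO, beside medians over all measured probe sets of 0.02, 0.00 and 0.00. Genes with several probe sets weigh more in these counts and medians. By gene, 6 of the 7 rose in double-KO, 6 in Jmjd1b-KO and 2 in Jmjd1a-KO. The 3 comparisons share the WT arrays. The calls of the single KO groups depended on single arrays. The 9 calls in Jmjd1b-KO became 2 (Krt18 and Krt19) without WT replicate 2 or without Jmjd1b-KO replicate 1, and 0 by limma without WT replicate 1 or Jmjd1b-KO replicate 2, with 9 still at an unadjusted p under 0.05 in each case. The 4 calls in Jmjd1a-KO became 6 without Jmjd1a-KO replicate 2, 2 (those of Pkp2) without Jmjd1a-KO replicate 1, and 0 by limma without either WT or either Jmjd1b-KO array, with 4 to 6 at an unadjusted p under 0.05. The 10 calls in double-KO were made without each array in turn.

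Deletion of Jmjd1b in cells that already lacked Jmjd1a was read from double-KO against Jmjd1a-KO. Of the 11 probe sets 7 rose, all those of Krt8, Krt18, Krt19 and Dsp, and that of Cdh1 fell, where 17.0% of all measured probe sets rose, 11.9% fell and 28.9% changed either way. Krt8 rose by 2.37, 2.33 and 1.75, Krt18 by 1.94 ± 0.11 (adjusted p = 0.000581) and Krt19 by 1.84 ± 0.19 (adjusted p = 0.00267). Dsp rose by 2.31 and 2.17. The call of Cdh1 depended on a single array, and its change ran from -0.53 to -0.30 with each array left out. Those of Pkp2 then ran from 0.28 to 1.18 on 1449799_s_at and from 0.22 to 1.08 on 1429183_at. Loss of Jmjd1a on top of Jmjd1b was read from double-KO against Jmjd1b-KO. There 6 rose, those of Krt8 (1.22, 1.07 and 0.84), Krt18 and Dsp (2.72 on 1435493_at), and that of Cdh1 fell, where 28.3% of all rose, 21.8% fell and 50.1% changed either way. The count of 7 was 4 without double-KO replicate 1 or either Jmjd1b-KO array, with the Krt8 calls lost each time, and 9 without either Jmjd1a-KO array, with Pkp2 added.

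The single KO groups were also set against each other. In Jmjd1a-KO against Jmjd1b-KO the 5 keratin probe sets fell, where 12.7% of all measured probe sets fell, 15.1% rose and 27.8% changed either way: Krt19 fell by 1.99 ± 0.19 (adjusted p = 0.00215), Krt18 fell by 1.18 ± 0.11 (adjusted p = 0.00203), and the Krt8 probe sets had -1.15, -1.26 and -0.91 (adjusted p from 0.0173 to 0.0389). The junction genes Dsp, Pkp2, Cdh1 and Epcam had changes from -0.21 to 0.69 (adjusted p from 0.106 to 0.996). The Krt8 calls depended on single arrays, unlike those of Krt18 and Krt19. With each array left out, the Krt8 changes ran from -1.52 to -0.78, -1.66 to -0.86 and -1.20 to -0.63. Krt18 ran from -1.29 to -1.08 and Krt19 from -2.24 to -1.74.

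Whether the change in double-KO cells differed from the sum of the single changes was tested as the interaction (double-KO minus Jmjd1a-KO minus Jmjd1b-KO plus WT). It was positive for Krt18 (0.97 ± 0.15, adjusted p = 0.0109) and for Dsp on 1435494_s_at (1.66 ± 0.38, adjusted p = 0.028), with 1.40 ± 0.40 on the other Dsp probe set (adjusted p = 0.0505). It was negative for Cdh1 (-0.94 ± 0.12, adjusted p = 0.00672). Across all measured probe sets 13.9% had a positive and 11.1% a negative call, 24.9% in all. The 3 calls among the 11 are thus near the background. The double-KO change of Krt18 was 1.72, where the single changes add up to 0.75, and that of Dsp was 3.65, where they add up to 1.99. That of Cdh1 was -0.09 with a sum of 0.85. Krt8 had 0.79 to 1.18 (adjusted p from 0.0819 to 0.136), Pkp2 -0.71 on both probe sets, Epcam -0.30 and Krt19 0.06 ± 0.26 (adjusted p = 0.897). The Dsp call was lost without either WT array, either Jmjd1b-KO array or double-KO replicate 1, while those of Krt18 and Cdh1 were made without each array in turn. Other interactions moved with single arrays too. With each array left out, Krt8 ran from 0.50 to 1.30 on 1423691_x_at and Pkp2 from -1.14 to -0.28 on 1429183_at.

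**Figure D3:**
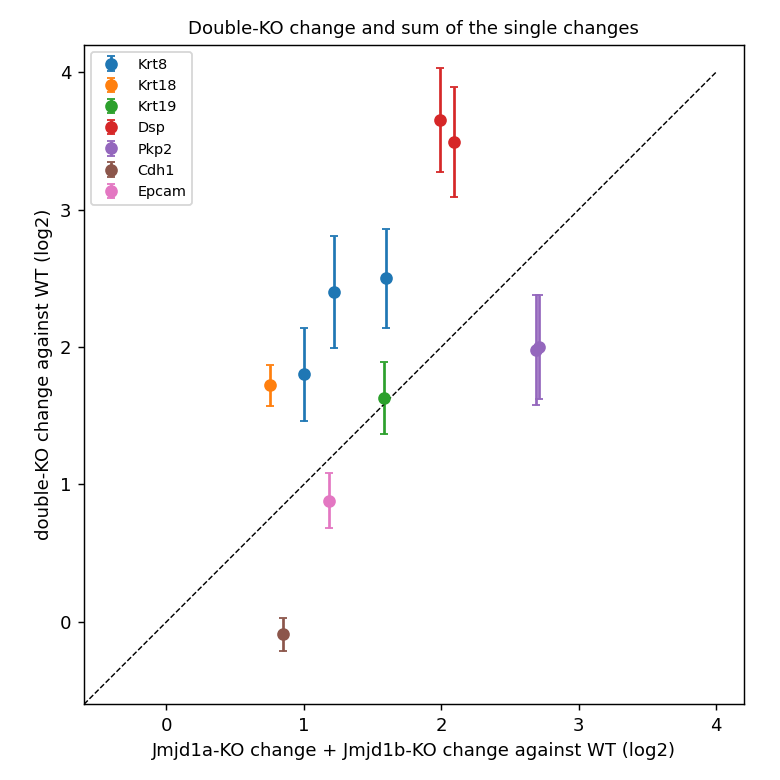
Double-KO change against WT (vertical) and the sum of the Jmjd1a-KO and Jmjd1b-KO changes against WT (horizontal), both in log2 units, 1 point per probe set, with bars for the SE of the difference between the 2 quantities and a dashed line of equality. Dsp, Krt8 and Krt18 lie above the line, Krt19 close to it at 1.63 and 1.58, and Cdh1, Pkp2 and Epcam below it.

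Other junction genes were taken from lists of known components, each gene by its measured probe set with the highest mean (others of the same gene can give another size of change). Of 11 listed genes of the desmosome 4 were measured, and in double-KO against WT the cadherins Dsg2 (1.17) and Dsc2 (0.80) and the membrane protein Perp (1.05) rose, while Pkp4, a relative of the plakophilins, fell by 0.34. These 3 of 4 higher calls and 1 lower stand beside the 26.9% of all measured probe sets that rose and the 19.6% that fell. In Jmjd1a-KO against WT Dsg2 (0.97) and Perp (1.05) rose, where 9.98% of all measured probe sets rose. In Jmjd1b-KO the 4 genes had changes from 0.00 to 0.36, with no call by limma (adjusted p from 0.0696 to 0.984) and 2 at an unadjusted p under 0.05. Perp is also a target of p53. The adherens junction list had 8 of 10 genes measured, and 6 rose in double-KO against WT, where 26.9% of all measured probe sets rose, with a list median of 0.35: Nectin2 (1.27), Afdn (1.04), which links nectins to actin, Nectin3 (0.94), beta-catenin Ctnnb1 (0.36), Vcl (0.33) and Ctnna1 (0.28). In Jmjd1a-KO the 8 had changes from -0.18 to 0.90, with 0 called by limma (adjusted p from 0.055 to 0.976) and 5 at an unadjusted p under 0.05. In Jmjd1b-KO Nectin2 (1.12) was the 1 gene of the 8 that rose, near the 12.3% of all measured probe sets that rose.

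Of 17 tight junction genes 10 were measured. Cldn7, a claudin of simple epithelia, had 10.51 and 10.76 in double-KO, 11.11 and 9.89 in Jmjd1a-KO and 10.00 and 10.33 in Jmjd1b-KO cells, against 8.10 and 8.33 in WT cells. It rose against WT by 2.42 in double-KO (adjusted p = 0.00454), by 2.29 in Jmjd1a-KO (adjusted p = 0.0173) and by 1.95 in Jmjd1b-KO (adjusted p = 0.022), so all KO arrays lay above WT, as for Pkp2. Cldn4 had 7.73 and 8.06 in double-KO, 9.26 and 8.85 in Jmjd1a-KO and 9.04 and 9.18 in Jmjd1b-KO cells, against 8.02 and 8.12 in WT cells. Like Cdh1 it was high in the single KO groups and not in double-KO cells, with an interaction of -2.21 (adjusted p = 0.00475). Cldn9 had an interaction of -1.39 (adjusted p = 0.0079). These 3 claudins were picked after their values were seen. Counts for the whole list were 3 higher in double-KO, 5 in Jmjd1a-KO and 3 in Jmjd1b-KO against WT, with medians of 0.26, 0.48 and 0.33. Of all measured probe sets 26.9%, 9.98% and 12.3% rose in the same comparisons, so the share of 3 in 10 in double-KO is near the background.

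Other intermediate filament genes were not higher in double-KO cells. Of 13 listed, 5 were measured, and Lmna (-1.41), Krt42 (-0.54) and Nes (-0.20) fell in double-KO against WT, where 19.6% of all measured probe sets fell. Krt7, a further type II keratin of simple epithelia, rose in Jmjd1b-KO against WT by 0.58 (adjusted p = 0.0214) and had -0.04 in double-KO (adjusted p = 0.803), with values of 6.46 to 7.33 on all arrays. Among 11 measured epithelial regulators and surface proteins of 18 listed, 5 rose in double-KO against WT, where 46.5% of all measured probe sets changed and 26.9% rose: the membrane protease St14 (1.66), the sorting adaptor Ap1m2 (1.04), the splicing factor Esrp1 (1.00), the protease inhibitor Spint2 (0.43) and the transcription factor Grhl3 (0.42). In Jmjd1b-KO St14 (1.13), Grhl2 (0.56) and Grhl3 (0.41) rose and Cd24a fell by 2.59, where 12.3% of all rose and 11.5% fell. The list medians were 0.42 and 0.44.

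Genes of mesenchymal cells were low in Jmjd1b-KO cells, the group in which Cdh1 was called higher than in WT. Of 12 listed, 8 were measured and 5 fell in Jmjd1b-KO against WT, where 11.5% of all measured probe sets fell. They were the N-cadherin gene Cdh2 (-2.88), Zeb2 (-2.08), Cdh11 (-1.58), Fn1 (-1.12) and Mmp2 (-0.58). Zeb2 can repress Cdh1 in epithelial cells, and a link of any of these genes to Cdh1 was not tested here. Cdh2 had 10.51 and 9.52 in double-KO, 9.05 and 9.81 in Jmjd1a-KO and 6.91 and 6.40 in Jmjd1b-KO cells, against 9.47 and 9.61 in WT cells, so it was low in Jmjd1b-KO cells and in no other group. In double-KO against WT the list had a median of -0.07, with Sparc (-0.66) as its 1 call. Snai1, Snai2, Zeb1 and Twist2 were flat.

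Marker lists of other cells moved with the groups too, and their part in the keratin and junction changes was not tested. All 12 pluripotency markers were measured, with list means of 11.10 and 11.84 in double-KO, 11.68 and 11.83 in Jmjd1a-KO and 11.52 and 11.50 in Jmjd1b-KO cells, against 11.47 and 11.48 in WT cells. In double-KO against WT 4 of the 12 rose (Sox2, Nanog, Zfp42 and Tdgf1) and 1 fell (Lin28a). Of all measured probe sets 26.9% rose and 19.6% fell there. Among markers picked by eye, double-KO replicate 1 stood apart with Fgf4 at 7.58 and Esrrb at 7.68. The other double-KO array had 10.37 and 9.58. Replicate 1 also had the higher Dsp and Krt8 values of the pair. Krt18 was slightly higher in the other replicate (9.74, against 9.64 in replicate 1). Whether the state of replicate 1 had a part in the double-KO changes was not tested. Of 14 trophoblast markers 4 were measured, and Cdx2, Gata3 and Elf5, which define that lineage, were flat. In double-KO against WT 2 of the 4 rose (Tfap2c and Eomes), in Jmjd1a-KO 3 rose, and in Jmjd1b-KO 2 rose and Fgfr2 fell by 0.57, where 26.9%, 9.98% and 12.3% of all measured probe sets rose. The list mean was 8.85 and 8.89 in double-KO, 8.43 to 8.59 in Jmjd1a-KO and 7.96 to 8.04 in Jmjd1b-KO cells, against 7.54 to 7.61 in WT cells. Most of that spread was Tfap2c, since the mean of the other 3 genes was 7.76 and 7.79 in double-KO, 7.68 to 7.85 in Jmjd1a-KO and 7.43 to 7.45 in Jmjd1b-KO cells, against 7.33 to 7.37 in WT cells. Tfap2c, a transcription factor of trophoblast that binds the AP-2 motif, had 12.14 and 12.17 in double-KO, 10.80 and 10.68 in Jmjd1a-KO and 9.79 and 9.53 in Jmjd1b-KO cells, against 8.16 and 8.36 in WT cells. It was thus higher in Jmjd1a-KO than in Jmjd1b-KO cells, the reverse of the keratins. The Dsp means had the same order of groups as Tfap2c, with no call between the single KO groups (adjusted p = 0.106 and 0.2 by limma). A link of Tfap2c to any gene of the list was not tested.

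Of 14 primitive endoderm markers 8 were measured and Gata4, Sox7 and Foxa2 were flat. Their mean was 8.72 and 8.30 in double-KO, 7.90 to 8.03 in Jmjd1a-KO and 7.12 to 7.16 in Jmjd1b-KO cells, against 7.66 to 7.72 in WT cells. In double-KO against WT 7 of the 8 rose, Col4a1 (1.36) and Sox17 (1.07) most, where 26.9% of all measured probe sets rose. In Jmjd1b-KO against WT 5 of the 8 fell, beside 11.5% of all measured probe sets. Of 10 fibroblast markers 8 were measured, with means of 7.86 to 8.13 in double-KO, 7.80 to 8.03 in Jmjd1a-KO and 6.62 to 6.79 in Jmjd1b-KO cells, against 9.06 to 9.23 in WT cells. Of the 8, 5 fell in double-KO, 7 in Jmjd1a-KO and 7 in Jmjd1b-KO against WT, where 19.6%, 7.84% and 11.5% of all measured probe sets fell. Thy1 rose in Jmjd1b-KO by 0.56. Col1a2 had 7.53 to 7.73 in double-KO, 8.71 to 9.06 in Jmjd1a-KO and 6.70 to 7.01 in Jmjd1b-KO cells, against 10.52 to 10.67 in WT cells.

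**Figure D4:**
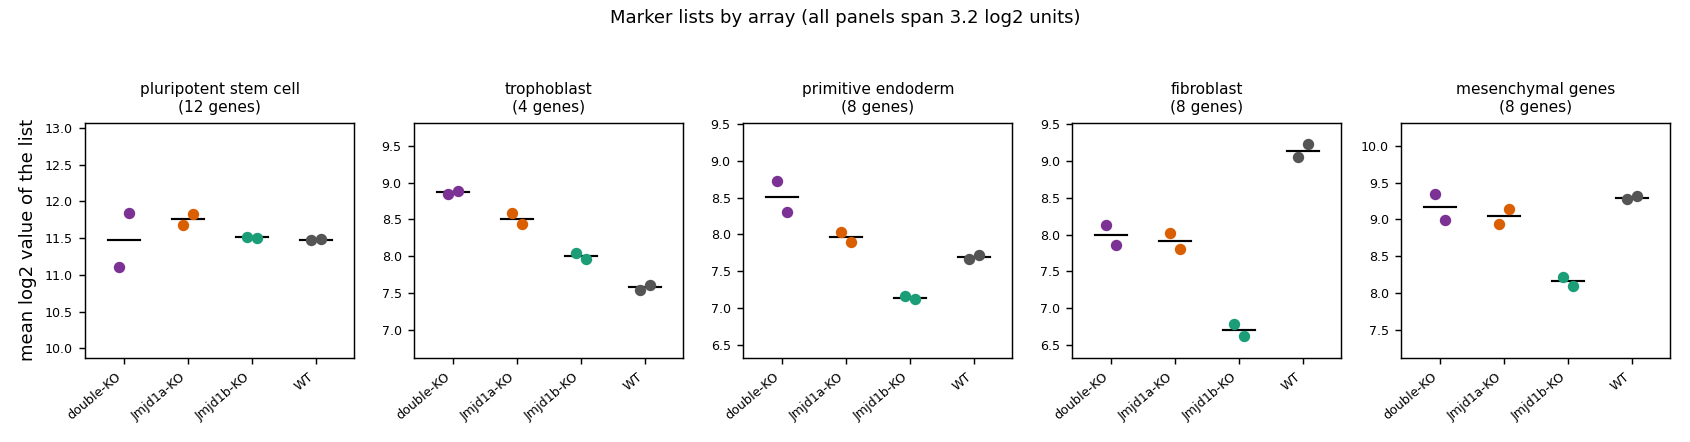
Mean log2 value of the measured genes of 5 marker lists on each array, with 2 points (replicates) and a line (mean) per group, in panels of equal height. Trophoblast means, which follow mostly Tfap2c, are highest in double-KO arrays (8.85 and 8.89), fibroblast means are highest in WT arrays, and the double-KO arrays differ in the pluripotency list (11.10 and 11.84).

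The profiles of the genes were compared by the root mean square difference over the 8 arrays after each profile was centred on its own mean, as a description. Krt18 was 0.20 to 0.35 from the Krt8 probe sets, 0.40 from Krt19, 0.92 and 1.01 from Dsp and 0.88 from Cdh1. Epcam was nearer to Cdh1 (0.39) and Pkp2 (0.43 and 0.44) than to Dsp (1.07 and 1.15). Profiles were not scaled, so the difference takes in the size of the changes as well as the order of groups. Genes with small changes can lie near each other with unlike orders. Double-KO cells had the highest group mean for Epcam (12.29) and the lowest for Cdh1 (11.48). Outside the list, the genes nearest to Krt18 were the transcription factor Klf2 (0.15), Gpat2 (0.16) and the interferon-inducible GTPase Igtp (0.19). Those nearest to Krt8 on 1420647_a_at were the germ cell RNA-binding protein gene Dazl (0.24), the mitochondrial carrier gene Slc25a31 and the protease gene Ctsc (0.27 each). The same 3 were nearest to 1423691_x_at (0.29 to 0.31), while Six4 (0.21), Gtsf1 (0.24) and Klf2 (0.26) were nearest to 1435989_x_at. Those nearest to Krt19 were Stk31 (0.23), Abcd4 (0.24) and Igtp (0.30). Dsp on 1435494_s_at was nearest to C130073F10Rik (0.22), the iron exporter gene Slc40a1 (0.35) and Vwa5a (0.37), and on 1435493_at to C130073F10Rik (0.20), Slc40a1 (0.28) and Slco4c1 (0.30). Pkp2 on 1429183_at was nearest to Ipp (0.15), the collagen-modifying enzyme gene Plod2 and St14 (0.20 each), and on 1449799_s_at to Ipp (0.11), Plod2 (0.20) and Pgm1 (0.22).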

How the data were processed

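RNA of 8 mouse embryonic stem cell samples was labelled as cRNA from 200 ng of total RNA and hybridised to 1 array each, per the labels' protocols. The authors deposited log2 values per probe set and array. R 2.7.2 is the version in the submitters' processing notes. How background was corrected and how probes were normalized and summarized is not stated in any source used here. That the scale is log2 was read from the values. Of 45101 probe sets 33599 (74.5%) spanned less than 0.01 over the arrays and hold no measured difference. Array medians lay between 6.80 and 6.81. Genes came from the platform's table, where 34958 probe sets had 1 symbol, 932 several and 9211 none.

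A model of 4 group means was fitted to the 11502 measured probe sets with limma 3.58.1 in R 4.3.3 (lmFit, contrasts, eBayes; 4 residual and 1.89 prior degrees of freedom). Each p-value was adjusted by the Benjamini-Hochberg method in each of 7 contrasts, with a threshold of 0.05. All groups share 1 error per probe set. The procedure was also run on simulated data in which few probe sets changed, unlike these arrays, and no result here rests on that run. The members, lists, contrasts and alternatives were chosen with earlier results of these data known. The text names every member, the deleted genes, list genes picked by eye, and for each member probe set spanning at least 1 the nearest 3 genes. Replicates with the same number deviated from their group means with correlations of -0.04 to 0.24, so the arrays were not paired. No array or value was left out or imputed. Precision is limited by there being 2 arrays per group. Plots were made in Python 3.11.15 (matplotlib 3.10.9).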

Additional observations from a re-analysis of the deposited data

Results flagged for a closer look

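The effect of Jmjd1b loss differed between Jmjd1a-deficient and Jmjd1a-intact cells for 3 of the 11 probe sets, by the interaction term of the limma model. Krt18 rose by 1.94 in double-KO against Jmjd1a-KO and by 0.97 in Jmjd1b-KO against WT, a difference of 0.97 ± 0.15 (adjusted p = 0.0109). Dsp on probe set 1435494_s_at had 2.31 and 0.65 in the same comparisons, a difference of 1.66 ± 0.38 (adjusted p = 0.028). Cdh1 fell by 0.42 in double-KO against Jmjd1a-KO and rose by 0.52 in Jmjd1b-KO against WT, a difference of -0.94 ± 0.12 (adjusted p = 0.00672). All 4 groups enter each difference. Of all measured probe sets 24.9% passed the same test, so the count of 3 in 11 is near the background.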

How the results depend on the processing

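With 2 arrays a group, calls of the single KO groups were the least stable, and those of double-KO against WT the most. The main counts of member probe sets called were 10 in double-KO against WT, 4 in Jmjd1a-KO and 9 in Jmjd1b-KO against WT, 8 in double-KO against Jmjd1a-KO, 7 in double-KO against Jmjd1b-KO, 5 in Jmjd1a-KO against Jmjd1b-KO and 3 for the interaction. Leaving out each array changed the calls of every comparison but double-KO against WT. Lists of 7 values below keep the order of the main counts. With 1 probe set per gene, flat ones included, 7 member probe sets stayed and the counts were 6, 0, 2, 4, 3, 2 and 1. The shares of all probe sets called there were 12.7, 2.06, 2.34, 4.48, 14.4, 4.68 and 3.83%. In the main fit these shares were 46.5, 17.8, 23.9, 28.9, 50.1, 27.8 and 24.9%. With all 45101 probe sets in the fit the counts were 8, 0, 0, 3, 4, 2 and 1. Of all probe sets 7.16, 1.72, 1.82, 2.86, 8.47, 3.02 and 2.76% were called there. The prior then had 0.12 degrees of freedom and the adjustment took in the flat probe sets. At an adjusted p under 0.01 Jmjd1a-KO against WT had 0, Jmjd1b-KO against WT 2, double-KO against Jmjd1b-KO 4, Jmjd1a-KO against Jmjd1b-KO 2 and the interaction 1. Beside these, 2.96, 4.09, 29.8, 10.5 and 6.63% of all measured probe sets were called. With a log2 change of at least 1, Jmjd1b-KO against WT had 5, double-KO against Jmjd1b-KO 4 and the interaction 1. Here 3.66, 11.7 and 8.69% of all measured probe sets were called. When the fit held just the groups compared, Jmjd1a-KO against WT had 0, double-KO against Jmjd1a-KO 4 and Jmjd1a-KO against Jmjd1b-KO 2. In that order 3.43, 4.83 and 18.4% of all measured probe sets were called. Jmjd1b-KO against WT then had 11, both Dsp probe sets included, where 44.1% of all were called. With array weights that comparison also had 11, beside 48.0% of all. Where a count was 0, limma still gave 4 to 9 probe sets at an unadjusted p under 0.05. The replicate block gave counts of 10, 4, 9, 8, 7, 5 and 4, the last by adding the second Dsp probe set, and changed no other call. Quantile normalization, centred arrays, robust eBayes with trend, a filter on low means, a span of at least 0.1, array weights and adjustment over the 7 contrasts together kept each count within 1.5 times. Signs turned for changes near 0 that had no call: Pkp2 on 1429183_at had 0.01 in Jmjd1a-KO against Jmjd1b-KO with quantile normalization. With each array left out, Krt8 ran from -0.33 to 0.41, -0.23 to 0.57 and -0.24 to 0.33 on its 3 probe sets and Krt19 from -0.45 to 0.04 in Jmjd1a-KO against WT. Pkp2 ran from -0.43 to 0.43 and -0.65 to 0.26 and Epcam from -0.41 to 0.00 in Jmjd1a-KO against Jmjd1b-KO, while Krt19 had -0.32 to 0.02 for double-KO against Jmjd1b-KO and -0.19 to 0.30 for the interaction. Over all measured probe sets the share called moved with each array left out, from 28.1 to 52.9% in double-KO, from 1.62 to 31.9% in Jmjd1a-KO and from 0.904 to 33.1% in Jmjd1b-KO against WT.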
